A study of Mus musculus with 10 samples.

Results

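The 5 vehicle libraries were whole-hippocampus RNA of wild-type male C57BL/6J mice, and they are described here on their own: how abundant each nuclear gene was, which cell classes the tissue held, and which genes differed most between the libraries. They were chosen by their labels and make up 5 of the 10 samples of the series, with the replicate numbers 6 to 10. The mice were 2 months old and received vehicle into the cisterna magna, the fluid space behind the cerebellum, followed by 689 nm red light over the intact skull. The same steps were repeated after 2 weeks, the Morris water maze (a spatial learning test in a pool) came 2 weeks later, and the hippocampus was dissected out 3 days after that. These are therefore the controls of a photoablation study of meningeal lymphatic vessels, carrying both injections, both light exposures and the maze, and they are not untouched mice. The labels number the samples as replicates and do not state that each came from its own mouse and extraction, so the spread between libraries may hold both biological and technical parts.

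The hippocampus is the part of the cortex that stores new spatial and episodic memories. Signals pass from granule cells of the dentate gyrus to pyramidal neurons of the CA3, CA2 and CA1 fields, with GABA-releasing interneurons throughout, and astrocytes, oligodendrocytes, microglia and blood vessels among them. Its surface lies against the meninges, the choroid plexus and the fimbria, a white matter tract, so a dissected piece can carry differing amounts of these neighbours.

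The table held 24752362 to 41073906 counts per library. Genes of the mitochondrial genome took 42.1% ± 1.41 (SD, n = 5) of all counts, most of it the large mitochondrial ribosomal RNA mt-Rnr2 at 32.2% to 35.7%, and mitochondrial messenger RNA took 3.48% to 3.86%. All levels below are counts scaled to a nuclear library of 1000000 (CPM), of which the libraries held 14191289 to 24080998. Of 27306 nuclear genes, 620 were at 0 in all 5 libraries, and 13798 to 14583 genes per library reached 1 CPM. Protein-coding genes took 93.8% to 97.7% of nuclear counts and ribosomal protein genes 0.592% to 0.740%. The female-specific RNA Xist averaged 0.818 CPM against 203 ± 26.5 CPM for the Y-linked Ddx3y, matching the label of male mice. The chi-square per degree of freedom of a pair's counts ran from 8.03 between libraries 6 and 7 to 54.4 between libraries 8 and 10, so no pair was 1 library deposited again, although this does not show that each came from its own mouse.

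Slc1a2, the glutamate transporter through which astrocytes clear glutamate from synapses, had the highest mean CPM of all nuclear genes. Its gene (ENSMUSG00000005089) spans 102658659 to 102790784 on chromosome 2 in the mouse build GRCm38. It stood at 6713, 7740, 7884, 6642 and 6570 CPM in libraries 6 to 10, a mean of 7110 ± 645 CPM (SD, n = 5), with libraries 7 and 8 above the other 3. Other abundant protein-coding genes were Ppp3ca, the catalytic subunit of the phosphatase calcineurin, at 3917 ± 467 CPM, and the neuronal membrane glycoprotein gene Gpm6a at 3841 ± 461 CPM. Snap25, part of the machinery that fuses synaptic vesicles, stood at 3177 ± 279 CPM, and the dendritic microtubule protein gene Map2 at 3159 ± 285 CPM. Among noncoding RNAs the nuclear RNA Malat1 measured 4633 ± 671 CPM and Rn7sk, the small RNA that holds back transcription elongation, 2632 ± 607 CPM. Rn7sk shared 72.8% of its 31-base words with other annotated genes, so reads could have been divided between it and its copies.

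Counts were spread over many genes: 892 nuclear genes held 50% of the nuclear counts. The 308 genes at or above 500 CPM held 30.4% of nuclear CPM, the 2150 genes between 100 and 500 CPM 43.6%, and the 3705 genes between 1 and 5 CPM 0.920%. The 10 leading genes took 4.01% to 4.18% of nuclear counts in libraries 6 to 9 and 6.31% in library 10.

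Per kilobase of exon the order changed, since CPM favours long transcripts. Calm2, a gene of the calcium sensor calmodulin, led the protein-coding genes at 1912 ± 202 CPM per kb, above Gpm6a at 1195 ± 144 and the translation elongation factor gene Eef1a1 at 1125 ± 43.6 CPM per kb. Eef1a1 lay within 1 SD of the mean of Gpm6a, so the order of Eef1a1 and Gpm6a is not settled. Tmsb4x, which encodes the actin-binding peptide thymosin beta 4, ranked 57th by CPM and had rank 5 by CPM per kb at 900.9 ± 67.8. Cpe, the carboxypeptidase that processes neuropeptides, stood at 757 ± 47.7 CPM per kb and Slc1a2 at 541 ± 49.1, where it was 11th. These ranks depend on the length used. Divided by the mean length of a gene's annotated transcripts (1720 bp for Slc1a2, whose exons together span 13133 bp), Slc1a2 came first at 4133 CPM per kb, ahead of Calm2 at 3122 and Eef1a1 at 2953. Eef1a1 shared 49.8% of its 31-base words with other genes, and Hspa8, a constitutive heat shock protein gene, 43.5%.

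The gene with the second highest mean CPM was a predicted model, Gm10800 (chromosome 2, 98666547 to 98667301, minus strand), and that rank rested on library 10. Gm10800 belonged to a family of 13 models, grouped by 20-base words shared with Gm10800 itself, Gm10801 or Gm26870. Of these models 10 matched themselves best at a period of 234 bp. That is the repeat length of mouse major satellite DNA, the tandem repeat packed around centromeres. Gm10800 was not among the 10, and its best match was at 225 bp with 56.3% identity. Gm10801 and Gm11168 matched best at 231 and 237 bp. The family is shown here because its highest and lowest libraries were further apart (29.4 times) than those of any cell-class list (5.51 times at most). One repeat unit of the member Gm26870 (GRCm38 chr9:3038080-3038313, minus strand, 5′ to 3′) reads as follows, with capitals at the 217 of 234 letters (92.7%) that are the same 1 unit further on:
Gm26870 repeat unit: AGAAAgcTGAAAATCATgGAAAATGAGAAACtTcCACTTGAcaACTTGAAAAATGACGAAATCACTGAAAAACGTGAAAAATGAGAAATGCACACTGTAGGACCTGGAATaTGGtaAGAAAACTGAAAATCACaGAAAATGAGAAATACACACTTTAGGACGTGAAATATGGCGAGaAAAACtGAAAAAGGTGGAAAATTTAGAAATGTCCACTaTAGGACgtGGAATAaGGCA

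Summed over the 13 models, the satellite-like level was 5672, 4568, 1308, 5118 and 38497 CPM in libraries 6 to 10. Library 10 was 6.79 times the next highest library, and library 8 was the lowest, 29.4 times under library 10. All 13 models were highest in library 10 and lowest in library 8, and the ratio of library 10 to library 8 ran from 19.4 to 42.7 over the models. Within the family the proportions stayed near constant: Gm10800 took 61.6% to 62.5% of the family's CPM in every library, and its ratio to Gm10801 was 7.99 ± 0.271 (SD, n = 5). The models were grouped by shared sequence, so reads could have been divided among them. Their near constant proportions and their common order of libraries may follow in part from that division. The 13 models are therefore not independent measurements, and the family's sum is firmer than any of them. Gm10800 itself measured 3545, 2823, 809, 3150 and 23802 CPM, which moved its rank from the first place in library 10 to 132 in library 8. The family took 3.76% of nuclear counts in library 10 and 0.126% to 0.565% in the others, beside the lowest coding share (93.8%) and the lowest depth of the 5 libraries. The part of depth in the family's level was not tested. The models were grouped after their values were seen, so the family is a description.

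**Figure D1:**
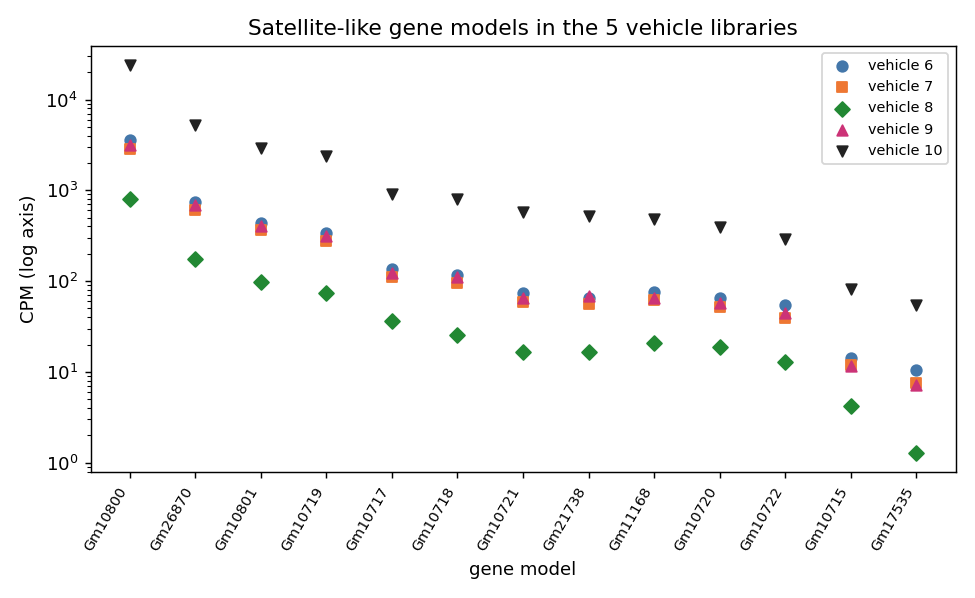
CPM (log axis) of the 13 satellite-like gene models, each point 1 of the 5 vehicle libraries. The black triangles of library 10 lie above, and the green diamonds of library 8 below, the other 3 libraries for all 13 models. The models share sequence and are not independent measurements.

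Most genes differed little between the libraries. Over the 10549 nuclear genes whose mean reached 5 CPM, the median coefficient of variation (CV, the SD over the 5 libraries divided by the mean) was 9.85%, of which counting error alone gave 3.91%. Taking the counting part out of the variance gave a biological CV with a median of 8.85%, and 6228 genes (59.0%) lay under 10%. A biological CV of 20% or more, the threshold used below, was reached by 932 genes, or 8.83%. It was 50% or more in 70 genes and 100% or more in 19. The highest library was 1.28 times the lowest for the median gene, and 2 times or more for 410 genes. The common biological CV that edgeR estimated over the same genes was 13.6%.

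The biological CV was larger in genes of low abundance and level from 20 CPM upwards. Genes between 5 and 20 CPM had a median biological CV of 10.8% and genes between 20 and 100 CPM one of 8.23%, with 8.28% from 100 to 500 CPM and 8.30% above. The share of genes at or above the 20% threshold was 17.9% between 5 and 20 CPM and 1.63% between 100 and 500 CPM. By kind of gene the median biological CV was 8.74% over 10126 coding genes and 11.9% over 239 long noncoding RNAs. It reached 19.6% over 79 pseudogenes, whose reads are easily shared with their parents, and 21.3% over 39 small noncoding RNAs.

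**Figure D2:**
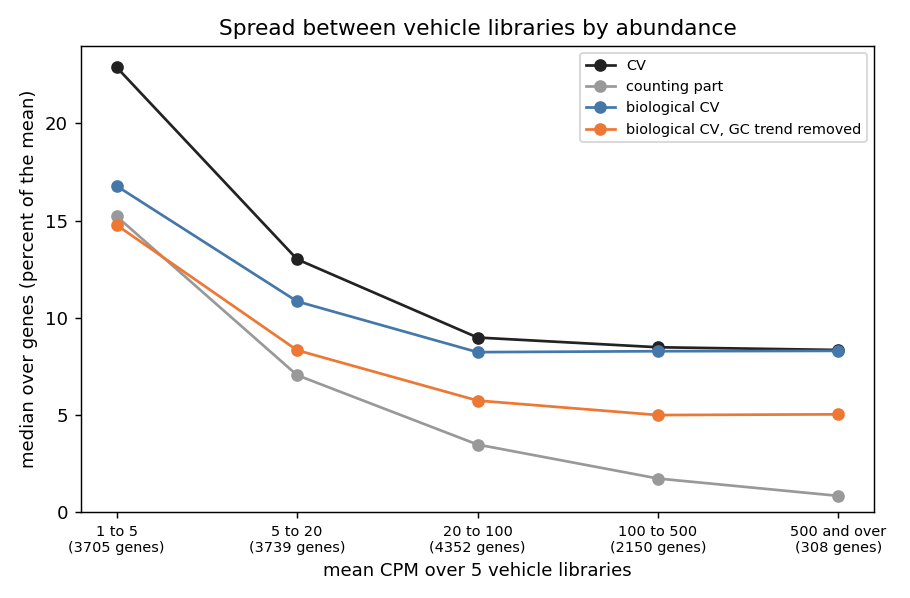
Median spread over genes (percent of the mean) in 5 bands of mean CPM over the 5 vehicle libraries: the CV, its counting part, the biological CV, and the biological CV after the trend with GC content was removed from each library. The biological CV levels off near 8.3% from 20 CPM upwards, and near 5% with the GC trend removed.

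Part of the spread followed the GC content of the transcripts. Genes were put into 5 equal groups of 2100 by the GC content of their exons. In the GC-richest group (54.0% to 68.2% GC), the median log2 difference from the 5-library mean was 0.11, -0.06, -0.07, 0.21 and -0.18 in libraries 6 to 10. In the GC-poorest group it was -0.02, 0.04, 0.10, -0.20 and 0.08. Library 9 thus read GC-rich genes higher and GC-poor genes lower than the rest, and library 10 the reverse. Of the genes at or above the 20% threshold, 525 (56.3%) had their highest value in library 9, and 451 lay in the GC-richest group, 21.5% of its genes, against 87 in the middle group. Removing each library's trend with GC content brought the median biological CV to 6.10% and the genes at or above 20% to 598 (5.67%), of which 509 were among the first 932. Without library 9, 608 genes were at or above 20%. What lies behind the GC trend was not tested.

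**Figure D3:**
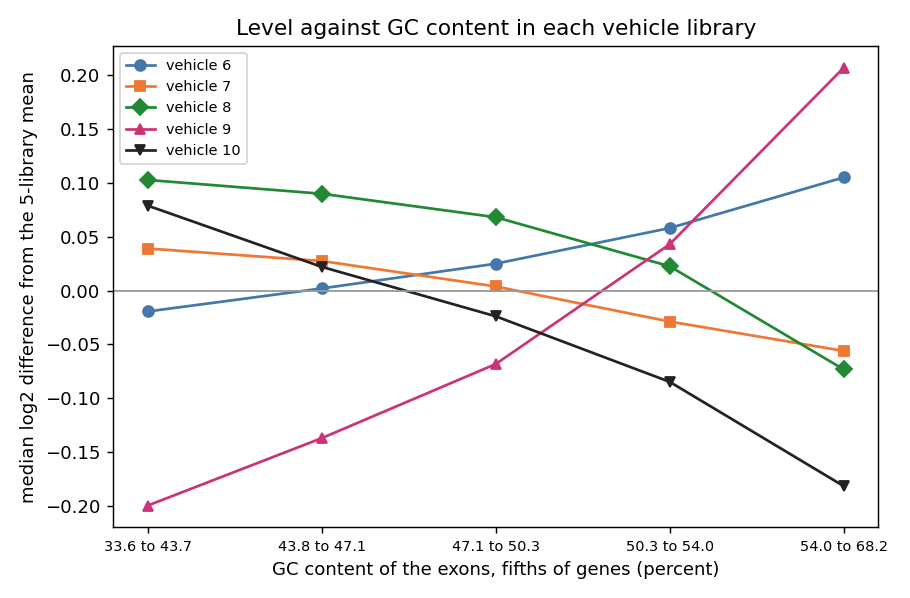
Median log2 difference of a library's CPM from the 5-library mean, for genes in 5 equal groups by exon GC content (percent), 1 line per vehicle library. Library 9 rises from -0.20 in the GC-poorest to 0.21 in the GC-richest group, library 6 rises less, and libraries 7, 8 and 10 fall.

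Dixon's ratio, the gap of the outermost of 5 values divided by their range, passed its 95% critical value for 757 genes (7.18%), each with 1 library apart from the other 4. In 438 of them library 9 was the low one and in 102 library 10 was. Across genes the ranks of 2 libraries were closest between libraries 7 and 8 (Spearman's rho 0.993) and farthest between libraries 9 and 10 (0.977), a description over the 10549 genes, which are not independent replicates. Genes 1.5 times or more apart numbered 185 in the first pair and 913 in the second. Libraries also led unequal shares of genes. Of the 14254 nuclear genes at or above 1 CPM, 15.8%, 12.9%, 27.5%, 26.5% and 17.2% were highest in libraries 6 to 10, and 10.3%, 13.5%, 14.7%, 34.1% and 27.5% were lowest there. Counts of list members by library below are over members at or above 1 CPM and stand beside these shares.

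The dissected tissue carried markers of the hippocampal cell classes, and the summed markers of all neurons, of interneurons and of immature neurons had CVs of 5.99%, 4.63% and 4.32% between libraries. Each class was followed by the summed CPM of a fixed marker list, the libraries in order 6 to 10. In bulk tissue a lower level cannot be told apart as fewer cells or less RNA per cell. Markers of all neurons summed to 8672 ± 520 CPM (8 genes), and none of the 8 reached the 20% threshold, with a median biological CV of 8.90% beside 8.85% over all genes. Interneuron markers summed to 1593 ± 73.8 CPM, with 0 of 12 measured members at or above 20% and a median of 7.38%. Within them Gad1, which makes GABA, measured 407 ± 25.9 CPM, the peptide gene Sst 70.5 ± 3.995 CPM and Npy, another interneuron peptide, 24.5 ± 1.15 CPM. The peptide gene Cck was at 5.66, 2.59, 2.84, 6.84 and 2.60 CPM, under the 5 CPM filter, with libraries 6 and 9 above the others. Markers of immature neurons and progenitors, cells of the dentate gyrus that divide into adulthood, summed to 204 ± 8.82 CPM, and 0 of 6 measured members passed 20%. The migrating-neuron gene Dcx measured 33.2 ± 1.55 CPM, Sox11, a factor of young neurons, 58.2 ± 4.48 CPM and the division marker Mki67 8.10 ± 0.683 CPM, while Neurod1, a factor of granule cell birth, stood at 20.6 CPM in library 9 and 25.2 to 27.3 CPM in the others.

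Excitatory neuron markers summed to 1566 ± 145 CPM, and 2 of 7 measured members passed 20%, both vesicular glutamate transporters that load glutamate into synaptic vesicles. Slc17a7, the form of hippocampal pyramidal and granule cells, measured 175, 107, 101, 184 and 89.1 CPM, with libraries 6 and 9 well above the other 3. Slc17a6, the form of thalamic and other subcortical neurons, measured 57.0, 88.8, 125, 81.1 and 63.3 CPM, highest in library 8. Their ratio, Slc17a6 to Slc17a7, ran from 0.326 in library 6 to 1.23 in library 8, and libraries 6 and 9 had the lowest ratios. The biological CV of Slc17a7 was 33.9%, and 23.3% with the GC trend removed. That of Slc17a6 was 31.9%, and 20.4% without library 8. The kinase gene Camk2a, a main protein of excitatory synapses, went from 662 CPM in library 8 to 909 CPM in library 9, and the transcription factor gene Neurod6 from 290 CPM in library 9 to 431 CPM in library 6.

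Among the fields of the hippocampus, CA3 and CA2 pyramidal cells and dentate granule cells had sums that varied more than that of all neurons. The CV of the sum was 13.9%, 10.6% and 10.3% for them, 5.80% for CA1 and 5.99% for the markers of all neurons. The contrast of dentate granule cells with CA1 depended on the processing. With the GC trend removed CA1 had 8.67%, dentate granule cells 8.63% and all neurons 2.13%. Without library 9 CA1 had 6.43% and dentate granule cells 6.36%. Without library 6 CA3 had 8.71% and CA2 6.92%. CA1 markers summed to 559 ± 32.4 CPM, CA2 markers to 180 ± 19.2, CA3 markers to 195 ± 27.1 and dentate granule markers to 887 ± 91.1 CPM. Most of the CA3 sum was Nectin3 at 137 ± 22.4 CPM, and most of the CA2 sum was Pcp4 at 117 ± 11.4 CPM. CA3 markers were at 236, 187, 173, 170 and 206 CPM, and CA2 markers at 209, 187, 159, 174 and 171 CPM, both highest in library 6. In that library 3 of 5 CA3 members and 4 of 5 CA2 members had their highest value, beside 15.8% of all genes, among them the CA3 adhesion gene Nectin3 at 168 CPM against 112 to 151 CPM. Dentate markers were highest in library 8 and lowest in library 9, at 1008 and 754 CPM. Of 9 members 6 were highest in library 8 (27.5% of all genes) and 5 lowest in library 9 (34.1%). Prox1, the transcription factor that defines granule cells, varied little at 196 ± 12.6 CPM, as did the matrix gene Npnt at 24.1 ± 1.05 CPM. Among all members of these lists, 2 of 5 CA3 genes passed the 20% threshold, Coch (31.04%) and Iyd (27.8%). Coch, which encodes a secreted protein also made outside neurons, was at 11.9, 16.4, 8.70, 8.73 and 8.38 CPM, and its biological CV was 16.0% without library 7. In CA2, Rgs14, a regulator of G-protein signalling, passed at 27.4% and fell under the threshold at 19.5% with the GC trend removed.

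**Figure D4:**
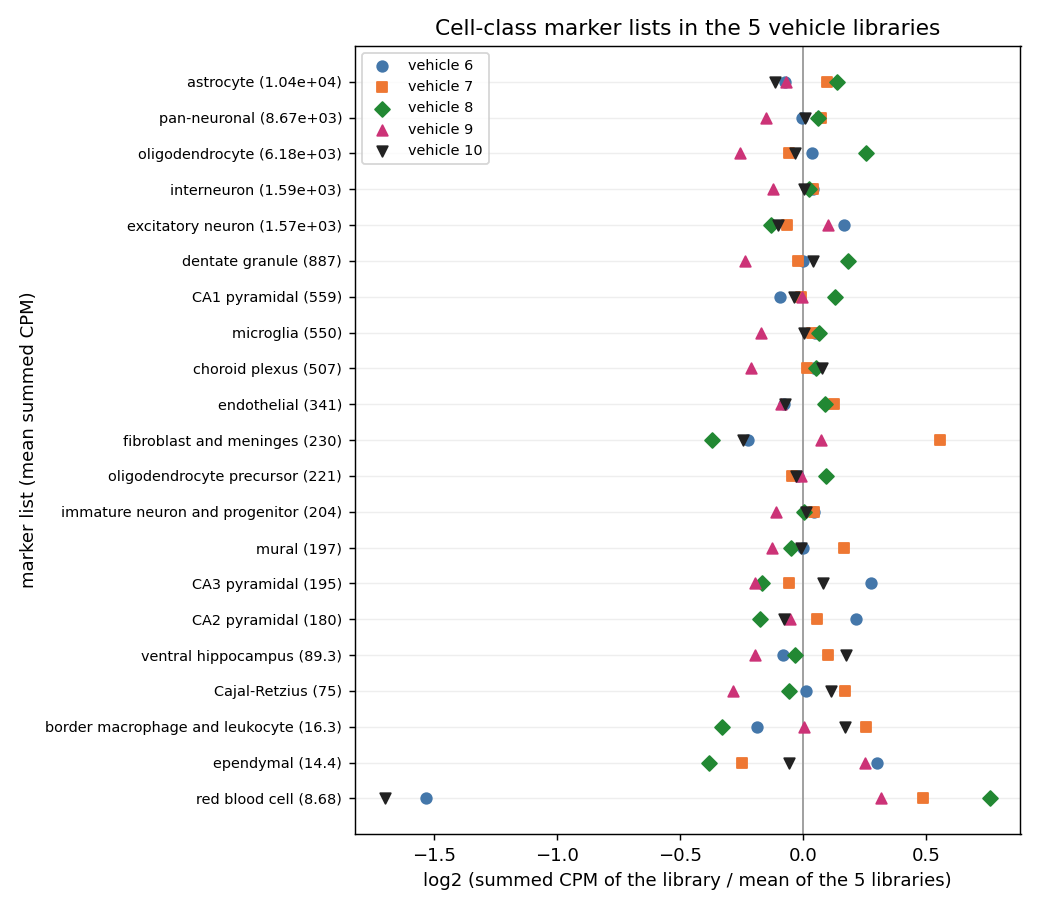
Summed CPM of each marker list in each vehicle library, as the log2 ratio to the mean of the 5 libraries; the mean summed CPM stands in brackets. The fibroblast and meninges list is high in library 7 and the red blood cell list is low in libraries 6 and 10, while the pan-neuronal, interneuron, astrocyte and microglia lists stay nearer the mean.

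Astrocyte markers summed to 10354 ± 834 CPM, most of it Slc1a2. The water channel gene Aqp4, placed on astrocyte endfeet, measured 395 ± 28.1 CPM, the intermediate filament gene Gfap 172 ± 16.5 CPM and the transcription factor gene Sox9 22.4 ± 1.07 CPM. Of 14 members 2 passed the 20% threshold. Fgfr3, a growth factor receptor gene, was at 2.19, 4.86, 8.92, 18.2 and 10.3 CPM, lowest in library 6 and highest in library 9. Aldh1l1, a folate enzyme gene used as a pan-astrocyte marker, passed at 23.8%, but stood at 14.96% with the GC trend removed and at 15.8% without library 9.

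Oligodendrocyte markers summed to 6343, 5941, 7385, 5180 and 6050 CPM, a mean of 6180 ± 799 and a CV of the sum of 12.9%, and 9 of 13 members were highest in library 8, beside 27.5% of all genes. None of the 13 reached 20%, with a median biological CV of 13.7% (11.01% with the GC trend removed). The myelin gene Mobp measured 607, 561, 812, 548 and 605 CPM and Mal, a membrane protein gene of compact myelin, 565, 554, 769, 466 and 537 CPM, with library 8 alone at the top of each. Cldn11, the tight junction gene of myelin, measured 193, 193, 248, 146 and 217 CPM. Mbp, the myelin basic protein gene, did not follow them and was highest in library 9 at 464 CPM. The myelin gene Mag was listed at 0 in libraries 7, 9 and 10 and had a mean of 0.344 CPM, under the filter. Precursor cell markers, at 221 ± 8.51 CPM, had a CV of the sum of 3.85%, the smallest among the cell-class lists. That rank did not hold with the GC trend removed, where it was 4.95% against 2.13% for the markers of all neurons, nor with total counts (4.87% against 2.25% for interneurons) or without library 9 (4.06% against 0.759% for interneurons).

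Microglia markers summed to 570, 565, 576, 489 and 552 CPM, and the sum was low in library 9 alone. Of 18 members 6 were lowest and 6 highest in library 9, beside 34.1% and 26.5% of all genes. Without library 9 the CV of that sum went from 6.41% to 0.911%. Of 13 measured members 2 passed 20%, the complement genes C1qa and C1qb at 20.8% and 21.3%, and neither did with the GC trend removed. The purine receptor gene P2ry12 measured 67.8, 74.3, 67.5, 50.3 and 74.4 CPM and the fractalkine receptor gene Cx3cr1 59.4, 59.3, 59.1, 52.1 and 61.6 CPM. Trem2, a lipid receptor gene of microglia under the 5 CPM filter, went the other way, at 6.52 CPM in library 9 and 3.64 to 4.18 CPM in the rest. The list of border macrophages and leukocytes summed to 16.3 ± 2.70 CPM. Its lymphocyte genes Cd3e (T cells), Cd79a and Ms4a1 (B cells) averaged 0.0605 CPM or less, while its member Ccr2 averaged 1.97 ± 0.474 CPM.

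Among the classes with measured members, the fibroblast and meninges list was the one in which most members varied. Its sum was 197, 338, 178, 242 and 194 CPM in libraries 6 to 10, a mean of 230 ± 65.2, with library 7 at 1.90 times library 8. Of 7 members above the filter 6 passed 20% (5 with the GC trend removed), and the median biological CV was 27.6% beside 8.85% over all genes. In library 7, 8 of 12 members had their highest value, beside 12.9% of all genes. Ogn, a small proteoglycan gene of the meninges, measured 15.9, 40.03, 18.6, 21.3 and 17.3 CPM, and library 7 stood alone. Slc13a4, a sulfate transporter gene of leptomeningeal cells, measured 6.51, 13.8, 5.90, 8.83 and 7.29 CPM, again highest in library 7. Ptgds, the prostaglandin D synthase gene of meninges and oligodendrocytes, measured 76.9, 144, 57.6, 118 and 44.9 CPM, high in libraries 7 and 9. Dcn, the matrix proteoglycan decorin, did not share that order and measured 50.2, 77.9, 55.5, 46.1 and 78.5 CPM, high in libraries 7 and 10. Collagen gene Col1a2 was at 7.29, 11.5, 5.30, 8.27 and 7.22 CPM, while the growth factor gene Igf2 passed no threshold at 18.4 ± 2.32 CPM.

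These values rested largely on library 7. Without it the biological CV went from 43.6% to 11.3% for Ogn, from 36.6% to 15.5% for Slc13a4 and from 27.4% to 15.5% for Col1a2, and the CV of the list's sum from 28.4% to 13.5%. Ptgds kept 42.8% without it. Mrc1, the mannose receptor gene of macrophages at brain borders, was also highest in library 7 at 11.9 CPM, against 7.19 to 8.66 CPM in the others, and its biological CV of 18.3% fell to 2.07% without library 7. Endothelial markers were at 323, 372, 362, 321 and 324 CPM, and 7 of 15 members were highest in library 7, beside the same 12.9%. Another 6 were highest in library 9, beside 26.5% of all genes. What part these other border and vessel cells had in the list's spread was not tested.

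Mural, endothelial, choroid plexus and ependymal sums had CVs of 7.68%, 7.29%, 7.81% and 20.7%. That of the fibroblast and meninges list was 28.4%, and 13.5% without library 7. Mural cell markers summed to 197 ± 15.1 CPM, most of it the pericyte gene Rgs5 at 149 ± 16.1 CPM. Among endothelial genes, Slco1c1, a thyroid hormone transporter gene of the blood-brain barrier, measured 51.3, 56.4, 67.4, 44.9 and 39.9 CPM (20.2%). The second member past 20% was the lipid transporter gene Mfsd2a (20.9%), and neither passed with the GC trend removed. The choroid plexus list summed to 507 ± 39.7 CPM, but 369 ± 45.5 CPM of it was Enpp2, a gene that oligodendrocytes also express. The defining choroid plexus gene Ttr, which encodes a thyroid hormone carrier secreted into cerebrospinal fluid, was low and uneven at 12, 11.2, 5.51, 3.33 and 14.7 CPM (50.2%), with libraries 8 and 9 under the other 3. Ependymal markers summed to 14.4 ± 2.99 CPM with no member above the filter.

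Marker lists of blood and of neighbouring brain regions were unlike in their spread. The CV of the sum was 63.6% for red blood cell, 53.4% for hypothalamic and 26.3% for striatal markers. It was 8.92% for thalamic and 9.77% for neocortex layer markers. Which tissue this RNA came from was not tested. Red blood cell genes summed to 3.00, 12.2, 14.7, 10.8 and 2.67 CPM, and libraries 6 and 10 stood clearly under the other 3. The globin gene Hbb-bs measured 1.33, 6.50, 9.18, 4.76 and 0.506 CPM and Hba-a2 0.129, 2.32, 3.45 and 1.99 CPM in libraries 6 to 9 and 0 in library 10. Hbb-bs shared 54.4% and Hba-a2 92.6% of their 31-base words with other genes, chiefly a globin copy, so the sum is firmer than either. Striatal markers summed to 33.99 ± 8.95 CPM over the 5 libraries. The dopamine receptor gene Drd1 measured 11.4 to 12.4 CPM in libraries 6 to 9 and 7.44 CPM in library 10. Thalamic markers summed to 60.7 ± 5.41 CPM, layer markers of the neocortex to 131 ± 12.8 CPM, and hypothalamic peptide genes to 0.801 ± 0.428 CPM, where no member reached 1 CPM.

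The genes with the largest spread were mostly single genes of low abundance in which 1 or 2 libraries broke away. Xkrx, a gene of the XK family of membrane proteins, had the largest biological CV among annotated coding genes, 182%, with 3.00, 3.01, 0.603, 4.30 and 61.5 CPM, and 55.0% without library 10. Msantd4 (157%) was at 1.24, 0.739, 31.5, 0 and 88.6 CPM, high in libraries 8 and 10 and near 0 in the others. Glce, an enzyme gene of heparan sulfate synthesis, was at 0, 5.39, 0, 5.13 and 21.5 CPM. Rbm8a, a core gene of the exon junction complex, was at 21.6 CPM in library 6, 4.44 to 4.55 CPM in libraries 7, 8 and 10, and 0.0462 CPM in library 9. It shared 13.0% of its 31-base words with other genes, chiefly its copy Rbm8a2, and its biological CV was 64.5% without library 6. Mid1, an X-linked ubiquitin ligase gene, was at 66.7 CPM in library 10 and 11.2 to 18.0 CPM in the rest, and its biological CV of 94.4% became 18.8% without library 10.

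In some genes 1 library was listed at 0 while the others were clearly above it. Kdm3a, a histone demethylase gene (ENSMUSG00000053470, chromosome 6, 71588972 to 71632990), was listed at 0 in library 6 and at 35.0, 15.9, 17.1 and 16.0 CPM in libraries 7 to 10. Zfp746, a zinc finger gene, was listed at 0 in library 10 and at 7.90 to 14.5 CPM elsewhere. In all, 5 of the 10549 genes had a 0 in some library, 4 of them coding (Msantd4, Kdm3a, Zfp746 and Glce). Salmon divides reads between transcripts by estimation, so a listed 0 can be a failed estimate as well as missing RNA, and no fold change is given against it. Without its zero library the biological CV was 44.6% for Kdm3a and 23.2% for Zfp746.

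Other genes with a wide spread were detected in all 5 libraries. Ube3a, the ubiquitin ligase gene that neurons express from the maternal copy, measured 70.6, 76.5, 96.1, 8.23 and 42.3 CPM, lowest in library 9, and had a biological CV of 58.1%, which was 30.4% without that library. Hspa2, a heat shock protein gene, measured 23.7, 0.951, 10.3, 9.52 and 40.1 CPM. Fndc3b, a gene of a fibronectin-domain protein, was at 2.74 and 6.05 CPM in libraries 6 and 9 and at 28.2 to 29.7 CPM in libraries 7, 8 and 10, a split with nothing between. Spp1, the secreted protein osteopontin, was at 16.2 CPM in library 7 and 3.11 to 7.35 CPM in the rest, and its biological CV of 69.0% became 36.6% without library 7. Myl6, a myosin light chain gene, measured 43.6, 32.9, 19.3, 76.6 and 19.1 CPM, and Chmp2a, a gene of membrane remodelling, 12.6, 18.5, 3.10, 26.8 and 3.97 CPM. In both, libraries 6, 7 and 9 were above libraries 8 and 10, and so they were for the ribosomal protein gene Rps15, at 8.57, 6.02, 4.61, 15.1 and 3.61 CPM. Removing the GC trend left 56.2% for Myl6, 74.0% for Chmp2a and 42.7% for Rps15, and without library 9 Myl6 stood at 40.5% and Rps15 at 36.0%.

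At the other end, some genes had the same level in every library to within counting error. Ppil2, a gene of the spliceosome, measured 56.4, 55.5, 55.4, 57.0 and 56.6 CPM, the smallest CV of any gene above 50 CPM. The GTPase regulator gene Srgap2 measured 64.7 ± 1.07 CPM, the deubiquitinase gene Usp48 92.3 ± 1.54 CPM and the RNA-binding protein gene Hnrnpl 108 ± 1.88 CPM. Among abundant genes the ubiquitin ligases Herc1 and Mycbp2 were the steadiest of those named, at 643 ± 10.9 and 727 ± 12.8 CPM. Their biological CVs of 1.44% and 1.54% were 5.99% and 3.41% with the GC trend removed, and that of Ppil2 went from 0 to 1.44%.

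Genes often used as references in quantitative PCR did not all share that steadiness. Of 17 such genes 8 had a biological CV under 10%, and 13 did with the GC trend removed. Gapdh, a glycolytic enzyme gene, measured 396, 274, 285, 467 and 243 CPM, a biological CV of 28.3%, with libraries 6 and 9 above the other 3. It was 1 of 2 members past 20%. With the GC trend removed Gapdh stood at 19.5%, and without library 9 at 21.6%. The actin gene Actb had 11.5% and B2m, the light chain of class I histocompatibility molecules, 14.4%. Sdha, a subunit gene of respiratory complex II, was the steadiest at 354, 357, 358, 334 and 334 CPM (3.28%), ahead of Eef1a1 (3.85%), the cyclophilin gene Ppia (4.12%), Tbp (4.72%), which encodes the TATA-binding protein, and the glycolytic gene Pgk1 (5.25%). With the GC trend removed Tbp had no spread beyond counting error and Sdha 1.62%. The ratio of Gapdh to Sdha went from 0.729 in library 10 to 1.39 in library 9.

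**Figure D5:**
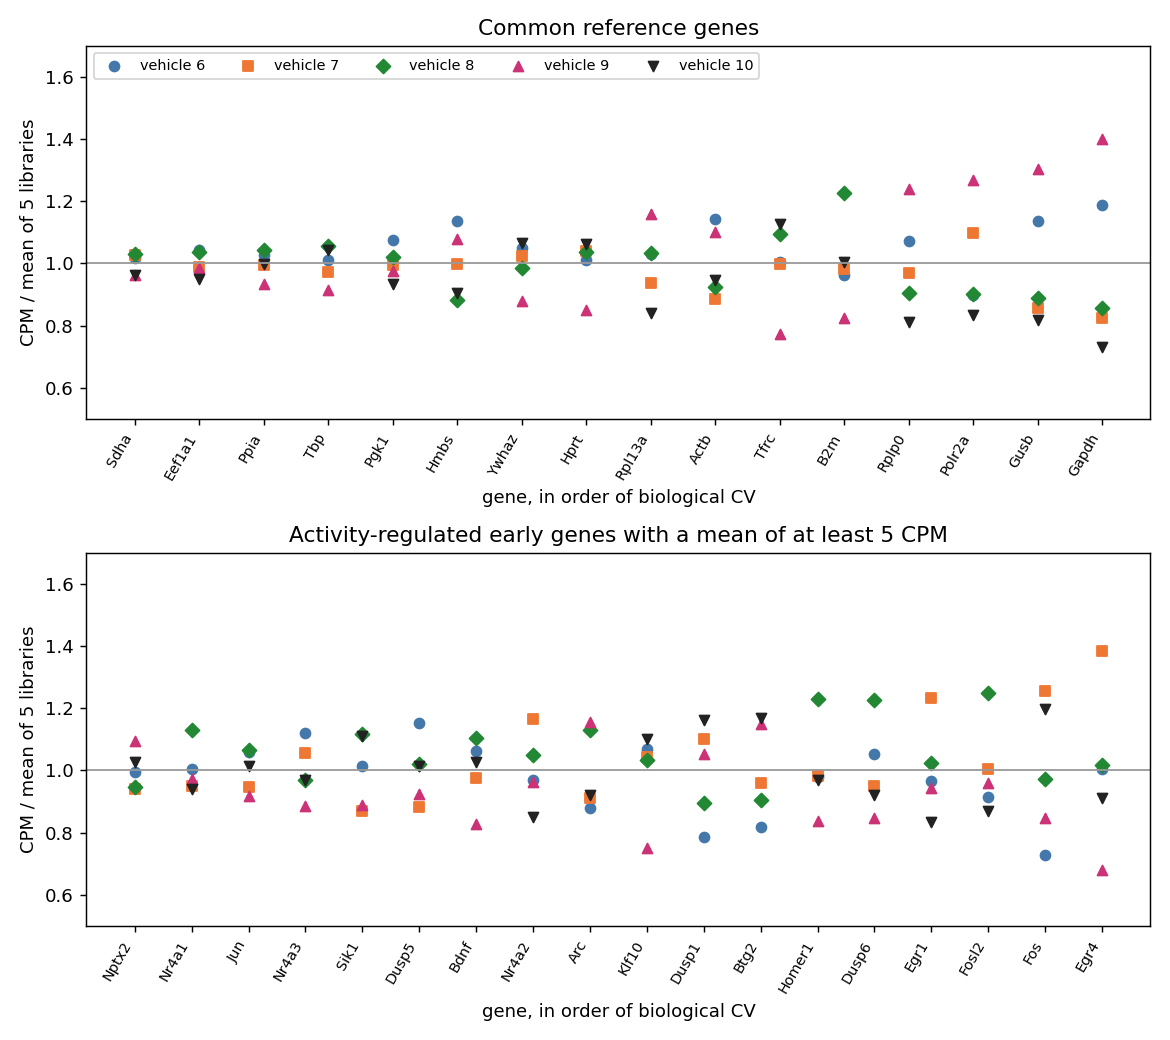
CPM of each gene divided by its mean over the 5 vehicle libraries, for 16 of 17 reference genes (top) and the 18 activity-regulated early genes whose mean reached 5 CPM (bottom), in order of biological CV. Sdha, Eef1a1 and Ppia stay close to 1, while Gapdh spreads widest of the reference genes shown, with library 9 highest.

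Early genes, which neurons switch on within minutes of activity, were mostly measurable 3 days after the maze, 24 of 26 at or above 1 CPM. The list summed to 1243 ± 114 CPM, more of it from Homer1 (541 ± 77.3 CPM), a scaffold gene of excitatory synapses, than from any other member. The transcription factor gene Egr1 measured 59.7 ± 8.83 CPM, the synaptic plasticity gene Arc 36.6 ± 4.85 CPM and the growth factor gene Bdnf 97.6 ± 10.4 CPM. Of 18 measured members 2 passed 20%. Fos was at 10.2, 17.5, 13.6, 11.8 and 16.7 CPM (21.6%), high in libraries 7 and 10 and low in libraries 6 and 9, and it had 16.8% without library 6. Egr4 passed at 23.7%, and at 14.4% without library 7 it did not. Npas4, a factor that responds to neuronal firing, was under the filter at 2.06, 5.55, 2.11, 4.90 and 3.90 CPM. By contrast Nr4a1, a nuclear receptor gene of the same class, stayed at 11.7 CPM with a biological CV of 4.01%, and Nptx2, a secreted synaptic protein gene, at 10.3 ± 0.661 CPM with no spread beyond counting error. With the GC trend removed these were 10.8% and 9.12%. The median biological CV of the list was 13.2%, above the 8.85% of all genes. Fosb was listed at 0 in 4 libraries and at 2.59 CPM in library 9.

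Interferon-response genes, the antiviral programme that type I interferon turns on through the factor ISGF3, were low, and their sum was highest in library 8. Their sum was 66.5, 71.4, 91.8, 66.3 and 67.5 CPM, and 8 of 10 members were highest in library 8, beside 27.5% of all genes. Ifit1, which encodes an antiviral RNA-binding protein, measured 4.50, 5.55, 9.26, 4.21 and 4.55 CPM. Its neighbour Ifit3 measured 8.96, 9.61, 17.0, 8.41 and 6.50 CPM, and Rsad2, the antiviral enzyme viperin, 1.41, 2.11, 3.70, 2.31 and 1.81 CPM. In each of the 3 genes library 8 stood alone above the others. Usp18, which removes the interferon-induced modifier ISG15, was at 2.37 CPM in library 8 and 0.462 to 1.16 CPM elsewhere. Of the 5 members above the filter Ifit1 (36.2%) and Ifit3 (39.4%) passed 20%. Without library 8 these were 6.33% and 13.9%, Rsad2 went from 35.4% to 11.7%, and the CV of the list's sum from 14.98% to 3.45%. The sum of counts behind Ifit1 was 105 in library 6, so these levels carry more counting error than those of most genes named here.

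The promoters of these genes can be read for the element that ISGF3 binds. The motif TTTCNNTTTC (GAAANNGAAA on the other strand) was searched on both strands in the 250 bases before the start site, in RefSeq's promoter table for GRCm38.p6. It lay in 6 of the 11 list genes with an entry (Ifit1, Ifit3, Isg15, Oas1a, Rsad2 and Bst2) and in 978 of 32851 promoters, or 2.98%. The stretches around the matches in the 3 genes named above are shown 5′ to 3′ on the gene's strand, with the motif in capitals, for Ifit1 (chr19:34640770-34640828, plus strand), Ifit3 (chr19:34583358-34583431, plus strand) and Rsad2 (chr12:26456548-26456587, minus strand). A match describes the letters and is not a measured binding site.
Ifit1: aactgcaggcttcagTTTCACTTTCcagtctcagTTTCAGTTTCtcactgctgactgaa
Ifit3: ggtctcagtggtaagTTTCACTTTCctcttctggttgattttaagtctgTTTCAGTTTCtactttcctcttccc
Rsad2: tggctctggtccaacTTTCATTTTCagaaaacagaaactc

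Library 8 had the highest sum in 12 of the 35 lists, beside 27.5% of all genes with their highest value there. Of these lists 2 are tied to stress. Glucocorticoid-response genes summed to 265, 265, 379, 332 and 277 CPM. The kinase gene Sgk1 measured 82.6, 75.0, 131, 111 and 84.7 CPM, high in libraries 8 and 9, and Tsc22d3, the leucine zipper gene known as GILZ, was at 76.4 to 97.0 CPM in 4 libraries and highest in library 8. Both passed 20% (24.0% and 20.7%), while without library 8 Sgk1 had 17.6% and Tsc22d3 9.85%. Fkbp5, a chaperone gene that glucocorticoids induce, did not follow and varied by 1.84% around 38.8 ± 1.58 CPM. Chaperone genes summed to 8122 ± 722 CPM, and 7 of 9 members were highest in library 8, beside 27.5% of all genes. Of the 9, 1 passed 20%, and 3 did with the GC trend removed.

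Clock genes and peptide genes each had 2 members past the threshold, which 8.83% of all genes passed. Of 13 measured clock genes these were the repressor genes Per1 (20.3%) and Nr1d1 (20.8%), which stood at 6.99% and 8.02% with the GC trend removed. The related repressor gene Nr1d2 measured 245 ± 18.4 CPM and Clock, which drives them, 70.2 ± 12.8 CPM. The time of day of dissection is not given in the labels. Of 8 measured peptide and granule genes 2 passed, Adcyap1, the peptide PACAP, at 6.94, 8.87, 15.8, 8.60 and 8.52 CPM (34.9%, and 6.85% without library 8) and Nts, neurotensin, at 12.9, 15.8, 28.3, 18.7 and 23.5 CPM (30.5%). Library 8 was the highest in both.

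Noncoding RNAs separated the libraries in another way. Nuclear long noncoding RNAs summed to 5144, 6225, 5788, 7176 and 6917 CPM, and 6 of 7 were lowest in library 6 (10.3% of all genes) and 5 of 7 highest in library 9 (26.5%). Malat1 measured 3761, 4628, 4219, 5412 and 5148 CPM and the imprinted RNA Meg3 283, 375, 311, 445 and 400 CPM, in the same order of libraries, with 6 and 8 low and 9 and 10 high. None of the 7 passed 20%, and 2 did with the GC trend removed. Their median biological CV was 16.0%, and 19.4% with the trend removed. Of the list of abundant small noncoding RNAs, all 3 members above the filter passed 20%, beside 23 of all 39 small noncoding RNAs above it. The signal recognition particle RNA gene Rn7s1 measured 337, 408, 120, 805 and 119 CPM (78.6%), high in library 9 and low in libraries 8 and 10, and Rn7s2, whose 31-base words are all shared with Rn7s1, had nearly the same values. Rn7s1 relative to Rn7sk ran from 0.0495 in library 8 to 0.283 in library 9, so these 2 RNAs did not vary in proportion.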

How the data were processed

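The authors deposited 1 table of estimated counts per gene for the series, made with FastQC and Salmon against mm10, per the submitters' processing notes. Per the labels' protocols, RNA came from RNeasy columns and libraries from a stranded total RNA kit. For the tool versions, the annotation and the step from transcripts to genes, nothing is given in the sources used here, and large deposited counts appear rounded. Gene identifiers were matched to GENCODE M21 on GRCm38: 27053 of 27343 matched, and the other 290 held at most 0.12% of a library's counts.

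Only the 5 vehicle columns were used, 24752362 to 41073906 counts each. Mitochondrial genes were left out and CPM computed with TMM library sizes (edgeR 4.0.16 in R 4.3.3, factors 0.964 to 1.08) from unrounded counts. With a single group there was no contrast and no test between groups. Dixon's ratio and the chi-square of library pairs describe the libraries. The biological CV is the square root of the variance less its counting part, divided by the mean, over genes whose mean reached 5 CPM. GC trends were fitted per library by loess (span 0.3) on log2 of CPM plus 0.5. DESeq2 1.42.0 size factors, total counts, other filters, thinning and leaving out each library were alternatives. Spread estimates were tested on simulated data. Further steps used Python 3.11.15, numpy 2.4.6 and pandas 2.3.3.

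Genes named were the 20 of highest CPM and the 20 coding genes of highest CPM per kb, the 25 of largest biological CV and the 10 of smallest CV (at least 50 CPM), up to 4 members per list by level and 4 by spread, and all early and reference genes. Some genes this rule selects are not reported here. Predicted models, pseudogenes and small RNAs were left out of the spread rankings. Genes outside this rule were named after their values were seen: the satellite-like models, Col1a2, Sst, Npy, Npnt, Gfap, Sox9, Mki67, Rsad2 and the gene pairs set in ratio. The list members Mag, Xist, Cd3e, Cd79a and Ms4a1, each with a mean under 1 CPM, also lay outside the rule. Isg15, Oas1a and Bst2 were named only for their promoter match. The members and lists were chosen with earlier results of these data known. Of the 361 list entries, Lhfpl3, Nkg7, Ly6c2, Rarres2, Avp and Kcnq1ot1 were not analysed here.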

Additional observations from a re-analysis of the deposited data

Results flagged for a closer look

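Of 170 measures checked (library shares, 35 list sums and 124 genes), 21 had 1 library apart from the other 4 by Dixon's ratio. For measures chosen without regard to their spread chance does so for about 1 in 20, and over the 10549 genes the share was 7.18%. The genes checked here were partly chosen for their spread and some belong to the lists, so the count of 21 is a description. In library 10 the coding share was 93.8% of nuclear counts against 96.6% to 97.7%, and the satellite-like share 3.76% against 0.126% to 0.565%. Mid1 stood there at 66.7 CPM (11.2 to 18.0 in the others), Drd1 at 7.44 CPM (11.4 to 12.4) and Zfp746 at 0 (7.90 to 14.5).

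Library 9 was low in 4 list sums: interneuron markers at 1464 CPM (1600 to 1641 in the others), immature neuron and progenitor markers at 189 CPM (205 to 211), microglia markers at 489 CPM (552 to 576) and choroid plexus markers at 438 CPM (513 to 536). Not all members followed their sum. Of 13 interneuron members at or above 1 CPM, 4 were lowest and 4 highest in library 9. Of 18 microglia members 6 were lowest and 6 highest there, beside 34.1% and 26.5% of all genes. Library 9 was also low in Gpm6a at 3047 CPM (3852 to 4206), Snap25 at 2702 CPM (3231 to 3439), Enpp2 at 292 CPM (377 to 413), Neurod1 at 20.6 CPM (25.2 to 27.3), Cx3cr1 at 52.1 CPM (59.1 to 61.6) and P2ry12 at 50.3 CPM (67.5 to 74.4). It was high in Trem2 at 6.52 CPM (3.64 to 4.18) and in Fosb at 2.59 CPM (0 in the others). Its TMM factor was 1.08, the highest of the 5. With total nuclear counts in place of TMM the CV of the sum went from 4.63% to 2.25% for interneuron markers, from 6.41% to 3.07% for microglia markers and from 7.81% to 4.10% for choroid plexus markers.

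In library 8 the interferon-response list stood at 91.8 CPM (66.3 to 71.4 in the others), oligodendrocyte precursor markers at 236 CPM (214 to 220) and Mobp at 812 CPM (548 to 607). In library 6 Kdm3a was listed at 0 (15.9 to 35.0 CPM in the others).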

How the results depend on the processing

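No paired analysis was possible because only 1 group is described and its replicate numbers 6 to 10 are shared with no other group. The filter set the counts most: genes at or above a biological CV of 20% numbered 932 as reported, 2487 with a mean of at least 1 CPM, 262 with at least 20 CPM and 8576 with no filter, where the median CV was 27.8% and 1 library stood apart in 3539 genes. With the GC trend removed they numbered 598. Leaving out each library gave 608 (without library 9) to 1152 genes, a median CV of 7.55% to 10.3%, 548 to 812 genes with 1 library apart and an edgeR common biological CV of 11.8% to 14.7%. Of the 932 genes, 548 were still at or above 20% without library 9. With each library left out and the GC trend removed, chosen after seeing the data, these were 495 to 703 genes, 6.56% to 7.75%, 534 to 586 genes and 10.3% to 12.04%. Leaving out the satellite-like models, also chosen after seeing the data, gave 928 genes. Without 1 library, 877 to 908 genes held 50% of nuclear counts, the mitochondrial share was 41.6% to 42.5%, and the cell-class lists summed to 32266 to 33084 CPM. With mitochondrial genes kept, 81 genes held 50% of counts and the lists summed to 18909 CPM, since the total was larger. Removing the GC trend moved the biological CV of 42 of 124 named genes by over 1.5 times, and total counts did so for 26, DESeq2 size factors for 4. Where no cause is given, the cause was not tested. Only 5 libraries limit every CV, and counting error outweighs the biological part of the spread for genes under 1 CPM. Between 1 and 5 CPM the medians were close, at 15.2% and 16.8%.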

Other observations

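Ventral hippocampus markers summed to 84.4, 95.8, 87.3, 78.1 and 101 CPM in libraries 6 to 10, and all 3 members were highest in library 10. Htr2c, a serotonin receptor gene that is also strong in choroid plexus, measured 64.5, 73.7, 71.8, 56.5 and 75.3 CPM, and Trhr, the receptor gene for thyrotropin-releasing hormone, 11.8, 13.8, 8.87, 13.5 and 15.4 CPM. Nr2f2, a transcription factor gene, was at 10.3 CPM in library 10 and 6.63 to 8.29 CPM in the rest. None of the 3 reached a biological CV of 20%. Markers of Cajal-Retzius cells, early-born neurons of the outer layers, summed to 75.0 ± 8.91 CPM, nearly all from Ndnf at 73.4 ± 9.08 CPM, a gene that interneurons also express.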
